A study of Mus musculus with 8 samples.

Results

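The genes described here build and run intraflagellar transport (IFT), the traffic of protein trains along the cilium, and the BBSome, the coat complex that rides on those trains and carries membrane proteins out of the cilium. They were given by gene symbol: 12 subunits of IFT-B, 6 of IFT-A, 6 motor subunits, 7 BBSome subunits, 2 chaperonin-like assembly factors and 3 genes for small GTPases or adaptors, 36 in all. Of these, 34 were measured by a transcript cluster of their own symbol, out of 22180 genes with such a cluster. All 34 were above the background floor, as were 16217 genes in the whole series. Each had 1 cluster. Arl6, whose GTPase recruits the BBSome to membranes, and Arl13b, a membrane-bound GTPase of the ciliary shaft, were not analysed here because the probe table used lists no cluster for them.

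Brain vessels of 2-month-old male C57Bl6 mice were compared in 2 groups of 4 arrays. Undigested vessels were purified after mechanical homogenization of the brain. For digested vessels a warm incubation with DNAseI and Liberase DL took the place of homogenization and partly digested the basal lamina, the matrix sheet to which astrocyte endfeet are anchored. The study made this comparison to find transcripts that leave the vessels with the endfeet, and the manner of dissociation and the loss of endfeet cannot be told apart in it. Each array held RNA of vessels pooled from several mice, so errors describe the spread between pools. In pooled tissue, fewer cells of a type and less RNA per cell cannot be told apart either.

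Nearly every vertebrate cell can build a single, immotile primary cilium, and a few epithelia, among them ependyma and choroid plexus, carry many cilia on each cell. Both kinds of cilium are assembled by the same machinery. Kinesin-2 hauls IFT trains towards the tip, IFT-B is the part of the train needed for that outward run and for tubulin delivery, and dynein 2 returns the trains with the help of IFT-A. Axonemal dyneins, radial spokes and the central pair, in contrast, belong to motile axonemes.

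Vessel markers were looked at first. The endothelial tight junction gene Cldn5 had log2 array values of 9.91 to 10.82, far above the background floor of 4.68, and all 25 endothelial marker genes were above it. So were all measured markers of motile cilia (29), choroid plexus (17), astrocytes (18) and neurons (15). Being above the floor thus does not show vessel identity. The arrays of the groups separated on the first principal component, which held 48.4% of the variance. On the second, with 15.1%, undigested arrays 1 and 2 (18.9 and 17.9) stood apart from undigested arrays 3 and 4 (-25.8 and -20.1). No label names a reason for that split, and where it moved a call or a count much, the value without those arrays is given. A call below means an adjusted p under 0.05 in limma, adjusted over all 27658 clusters above background, and every difference is digested minus undigested on the log2 scale.

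Many ciliary genes carry in their promoters an X-box, the site bound by RFX transcription factors, which govern ciliary genes from worm to mouse. Of 31 members with a RefSeq promoter (250 bases before to 50 after the start, GRCm38.p6), 14 (45.2%) held the X-box arm GTTGCC on either strand, against 14.1% of 27025 genes with a promoter of the same length. Both arms together, GTTNCC and GGNAAC spaced by 1 to 3 bases, were found in 2 member promoters, that of Bbs7 among them (6.45% of members, 0.903% of all genes). An arm of a pair that reads GTTGCC on either strand is counted as a single arm too. Of the sites found, 4 are shown as examples, a pair of arms and 3 single arms of members that changed upon digestion. Capitals mark the matching bases, and the strand is that of the gene.
Bbs7, chr3:36613485-36613522, minus strand: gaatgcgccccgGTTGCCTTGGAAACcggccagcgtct
Ift27, chr15:78174073-78174102, minus strand: gggttgatgatgGTTGCCaggagcctgttt
Wdr35, chr12:8974029-8974050, plus strand: tgggcggcggtgGTTGCCaggc
Ift172, chr5:31291097-31291126, minus strand: tgtcgcactcacGTTGCCtgtgcgtcagcg

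Upon digestion, most IFT and BBSome genes changed little. Of the 34, 5 rose (Ift27, Ift46, Ift57, Wdr35 and Bbs4), 1 fell (Ift172) and 28 did not pass the test. Over all clusters tested 21.2% were called and 10.2% lowered. Over the 16217 genes 23.4% were called, 14.4% raised and 9.04% lowered, so the members' shares, 17.65% called, 14.71% raised and 2.941% lowered, were near the background for raised genes and below it for lowered ones. At an unadjusted p under 0.05, 8 members were higher and 1 lower, and the methods' t-test gave 3 raised and 1 lowered after Benjamini-Hochberg adjustment and 9 and 1 before it. The methods' own threshold, an unadjusted p together with a 2-fold change, was met by 0 members. The median difference of the members was 0.16, against 0.02 over all genes, and 25 of the 34 differences were positive. The largest rise was 1.61-fold and the only fall called was 1.26-fold. The 95% interval of every member lay above a 2-fold fall, and that of all but Wdr35 lay within 2-fold in both directions. The 2 groups of arrays did not overlap for 8 members, 7 of them higher in digested vessels and 1 lower, against 29.6% of all genes without overlap, 17.8% higher and 11.9% lower.

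**Figure D1:**
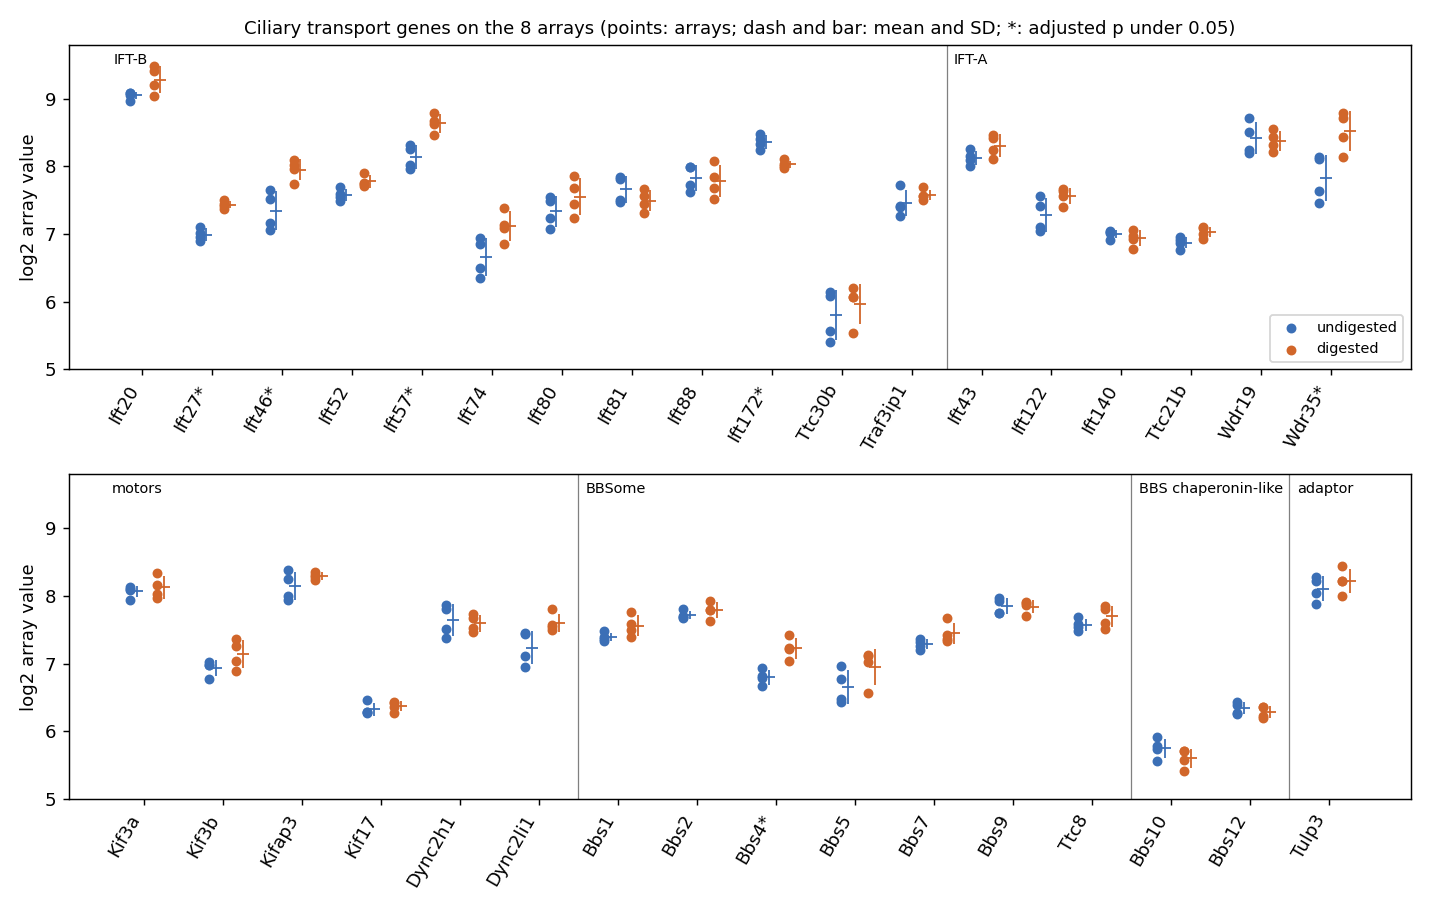
Log2 array value (vertical axis) of each member on the 4 undigested and 4 digested arrays, with mean and SD beside the points, members grouped by complex and those called marked with an asterisk. The groups of Ift27, Ift46, Ift57, Wdr35, Bbs4 and Ift172 do not overlap (narrowly for Wdr35), and those of most other members do.

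In IFT-B, 3 of 12 subunits rose and 1 fell. Ift27, a Rab-like GTPase that links the trains to the BBSome, had 6.89, 7.01, 7.11 and 6.96 on undigested arrays 1 to 4 and 7.45, 7.42, 7.37 and 7.50 on digested arrays 1 to 4. The groups were well apart, and Ift27 had the smallest adjusted p of the members, with a 1.36-fold rise (log2 difference 0.44, SE 0.08, limma adjusted p = 0.00544). Its call was lost without undigested arrays 1 and 2 (0.40, adjusted p = 0.0507). Ift46, a core subunit needed in Chlamydomonas to bring outer dynein arms into the flagellum, had 7.17, 7.06, 7.66 and 7.52 against 8.09, 7.74, 7.96 and 8.02. It rose 1.52-fold (log2 difference 0.60, SE 0.15, adjusted p = 0.0183), with the lowest digested array only just above undigested array 3. The call was lost without undigested replicate 1 (0.54, adjusted p = 0.0524) or digested replicate 1 (0.56, adjusted p = 0.0504). The t-test of the methods gave an adjusted p of 0.0558. Ift57, a peripheral subunit, had 8.02, 7.97, 8.32 and 8.26 against 8.62, 8.46, 8.79 and 8.67. It rose 1.41-fold (log2 difference 0.50, SE 0.11, adjusted p = 0.0135), and all digested arrays were higher than all undigested ones. Without undigested arrays 1 and 2 the call of Ift57 was lost (0.35, adjusted p = 0.111).

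Ift172, the largest IFT-B subunit, had 8.24, 8.34, 8.48 and 8.41 in undigested vessels and 8.01, 7.98, 8.04 and 8.10 in digested ones. It fell 1.26-fold (log2 difference -0.33, SE 0.08, adjusted p = 0.0193), and its digested arrays were tightly grouped below all the undigested ones. The call was lost without digested replicate 1 (-0.32, adjusted p = 0.0503) and after each array was centred on its median (-0.24, adjusted p = 0.0726), and without undigested arrays 3 and 4 (-0.25, adjusted p = 0.102). Centring on the endothelial list turned the sign (0.25, not past the test).

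The other 8 IFT-B subunits did not pass. Ift74, which with Ift81 forms the tubulin-binding module of the train, came closest. It had 6.50, 6.35, 6.86 and 6.94 against 7.09, 6.86, 7.13 and 7.39 (log2 difference 0.46, SE 0.16, adjusted p = 0.0692), with undigested arrays 3 and 4 overlapping the digested range. It passed in 7 of 21 alternatives, among them median centring (0.54), array weights (0.50) and the fits without undigested replicate 4 (0.55, adjusted p = 0.0494) or undigested arrays 3 and 4 (0.70, adjusted p = 0.0221). Its partner Ift81 differed by -0.17 (SE 0.12, adjusted p = 0.362), from 7.48 to 7.85 in undigested and 7.31 to 7.66 in digested vessels. The 2 estimates had opposite signs and neither passed. The 95% interval of Ift81 was -0.44 to 0.10, and its sign turned after endothelial centring (0.41) and without undigested arrays 3 and 4. Ift88, the subunit mutated in the Oak Ridge polycystic kidney mouse, differed by -0.05 with a 95% interval of -0.36 to 0.26. Ift20, which also resides at the Golgi apparatus, had 9.06, 9.08, 8.97 and 9.09 against 9.21, 9.04, 9.41 and 9.48 (log2 difference 0.23, adjusted p = 0.149), with digested array 2 among the undigested ones. The scaffold subunit Ift52 had 7.487, 7.546, 7.702 and 7.593 against 7.909, 7.736, 7.758 and 7.709 (log2 difference 0.20, adjusted p = 0.127), and passed after median centring (0.28, adjusted p = 0.0427). The Ift52 arrays of the groups did not overlap, but only by 7.702 against 7.709. Ift80, Traf3ip1 and Ttc30b differed by 0.22, 0.12 and 0.17. Ttc30b has closely related copies, Ttc30a1 and Ttc30a2, and how the probes part them is not known, so its value is uncertain.

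In IFT-A, which joins the return trip and carries membrane receptors into the cilium, 1 of 6 subunits rose and 0 fell. Wdr35 had 7.63, 7.46, 8.11 and 8.13 on the undigested arrays and 8.44, 8.14, 8.72 and 8.79 on the digested ones. This was the largest difference of all members, 1.61-fold (log2 difference 0.69, SE 0.19, adjusted p = 0.0335), and the groups only just parted, with undigested array 4 at 8.133 and digested array 2 at 8.136. Among undigested arrays, the call was lost when array 1 (0.62) or array 2 (0.56) was left out. Among digested arrays, it was lost when array 1 (0.71), array 3 (0.62) or array 4 (0.60) was left out, and the adjusted p of these 5 fits ran from 0.0616 to 0.0877. The t-test of the methods gave 0.0938 after adjustment.

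The other IFT-A genes stayed within smaller differences. Ift122 had 7.10, 7.05, 7.56 and 7.42 against 7.64, 7.40, 7.67 and 7.56 (log2 difference 0.28, adjusted p = 0.15), with digested array 2 inside the undigested range. Ift43 differed by 0.18 and Ttc21b by 0.16. Wdr19, a core subunit, had 8.21, 8.25, 8.72 and 8.51 against 8.32, 8.21, 8.43 and 8.55 and differed by -0.04 (95% interval -0.34 to 0.25), its groups overlapping. Ift140, of the same core, differed by -0.07 (95% interval -0.26 to 0.12). No IFT-A gene was called lowered by limma, and 0 had an unadjusted p under 0.05 in that direction, nor was any lowered by the methods' t-test before or after adjustment.

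None of the 6 motor genes had an adjusted p under 0.05 in limma or with the methods' t-test, and 1 had an unadjusted p under 0.05 in each. In limma this was Dync2li1. Dync2li1, the light intermediate chain of dynein 2, had 6.95, 7.12, 7.46 and 7.44 in undigested and 7.57, 7.50, 7.54 and 7.80 in digested vessels (log2 difference 0.37, SE 0.13, adjusted p = 0.0781). The groups did not overlap, but undigested arrays 3 and 4 lay close to the digested ones. It passed in 5 of 21 alternatives, among them median centring (0.45), array weights (0.40) and the fit without undigested arrays 3 and 4 (0.57). Dync2h1, the heavy chain of the same motor, had 7.38, 7.52, 7.87 and 7.82 against 7.52, 7.47, 7.67 and 7.73 and differed by -0.05 (95% interval -0.33 to 0.23), with fully overlapping groups. Of heterotrimeric kinesin-2, the motor subunits Kif3a and Kif3b differed by 0.06 and 0.21. Their accessory subunit Kifap3 had 7.941, 7.999, 8.257 and 8.384 against 8.238, 8.309, 8.276 and 8.362 (log2 difference 0.15, adjusted p = 0.36), with the digested arrays inside the range of the undigested ones. Kif17, a homodimeric kinesin of the same class, differed by 0.05 with a 95% interval of -0.14 to 0.23.

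Among the BBSome subunits, 1 of 7 rose and 0 fell. Bbs4, which is also found at centriolar satellites, had 6.79, 6.66, 6.94 and 6.81 against 7.22, 7.04, 7.24 and 7.42. Its groups did not overlap, and it rose 1.34-fold (log2 difference 0.43, SE 0.10, adjusted p = 0.0172). Without undigested arrays 1 and 2 the call of Bbs4 was lost (0.35, adjusted p = 0.128). Bbs5, a subunit that binds phosphoinositides, had 6.43, 6.48, 6.78 and 6.96 against 7.13, 6.56, 7.02 and 7.12 (log2 difference 0.29, adjusted p = 0.228), with digested array 2 among the undigested ones. Bbs1, the subunit that meets Arl6, differed by 0.17, Bbs7 by 0.16, Ttc8 by 0.12 and Bbs2 by 0.07. Bbs9, a scaffold of the complex, had 7.74, 7.75, 7.97 and 7.93 against 7.89, 7.70, 7.87 and 7.92, a difference of -0.01 with a 95% interval of -0.21 to 0.20. By an unadjusted p under 0.05 in limma or in the methods' t-test, 0 BBSome genes were lowered. Bbs10 and Bbs12, chaperonin-like genes that assemble the complex, differed by -0.15 (95% interval -0.38 to 0.09) and -0.06 (95% interval -0.24 to 0.13), and neither had an unadjusted p under 0.05 in limma or in the methods' t-test. Tulp3, an adaptor that works with IFT-A to bring receptors into the cilium, differed by 0.12 (95% interval -0.16 to 0.39).

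**Figure D2:**
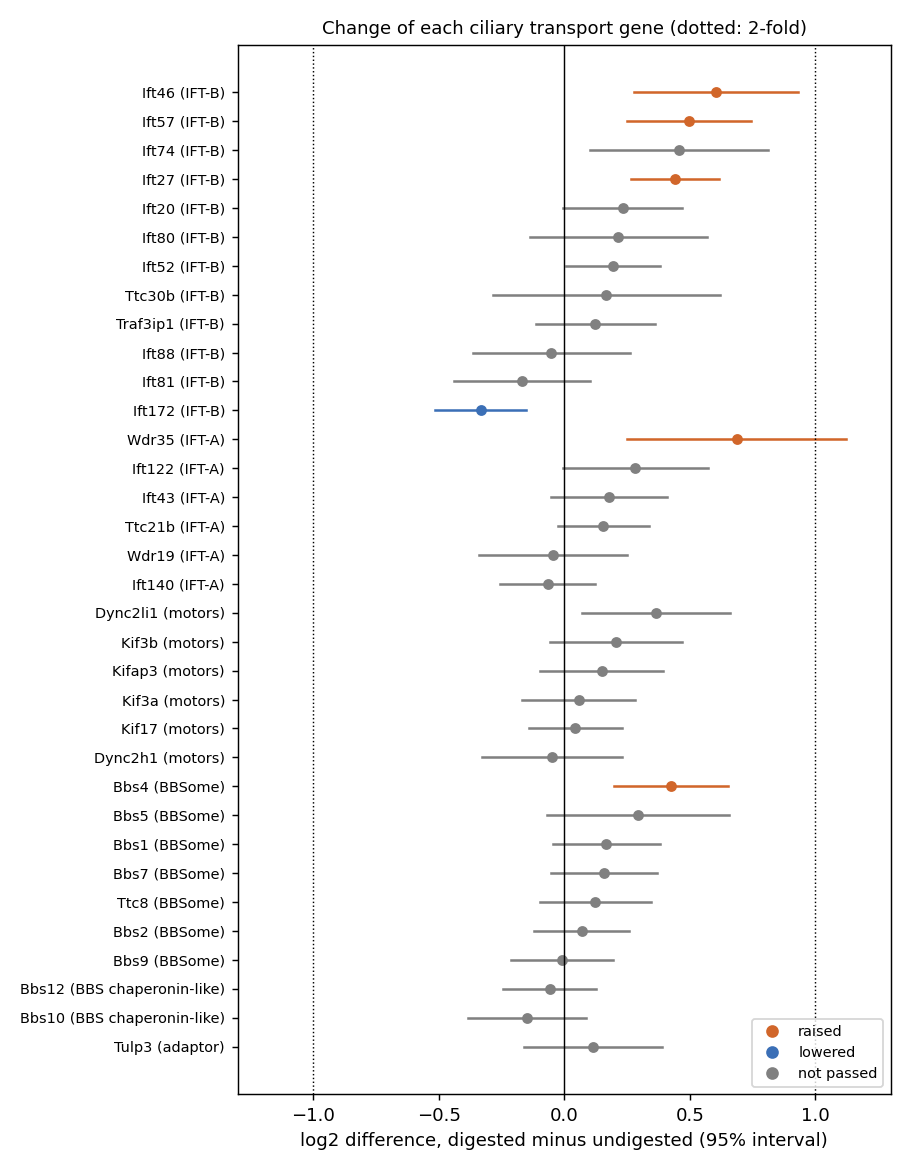
Log2 difference, digested minus undigested, of each member (horizontal axis) with its 95% interval from limma, by complex; dotted lines mark 2-fold. The 5 raised members lie between 0.43 and 0.69, Ift172 lies at -0.33, and no interval reaches a 2-fold fall.

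Within the undigested group, the members were lower on arrays 1 and 2 than on arrays 3 and 4. Arrays 3 and 4 were both above 1 and 2 for 23 of 34 members (67.6%), against 31.0% of all genes, among them 10 of 12 IFT-B genes and 4 of 6 IFT-A genes. The median gap was 0.18 over the members and 0.31 over the IFT-B genes, against 0.02 over all genes. The mean of the 34 members was 7.29 and 7.29 on undigested arrays 1 and 2, 7.53 and 7.50 on arrays 3 and 4, and 7.54, 7.41, 7.62 and 7.68 on digested arrays 1 to 4. Digested array 2 thus lay between the pairs of undigested arrays. Without undigested arrays 1 and 2, 0 members were called raised by limma, 4 had an unadjusted p under 0.05 in that direction, Ift172 was still lowered (-0.41) and 2415 clusters were called in all. Without undigested arrays 3 and 4, 9 members were raised and 0 lowered. Of all 27658 clusters, 1008 were raised and 1407 lowered without arrays 1 and 2. Without arrays 3 and 4, 2648 clusters were raised and 2419 lowered. Between those settings the difference of Wdr35 was 0.40 or 0.98, that of Ift46 0.37 or 0.84 and that of Bbs4 0.35 or 0.50.

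Genes of the same pathway outside the member list had a median difference like that of the members. Of 40 such genes above background, 6 rose, 1 fell and 33 did not pass, with a median of 0.16. The shares were 15.0% raised, near the 14.4% of all genes, and 2.5% lowered, against 9.04% of all genes. Without undigested arrays 1 and 2, 5 rose and 1 fell, and without arrays 3 and 4, 12 rose and 0 fell. The counts over all clusters in these settings are given above. Of 10 other IFT and BBSome genes, only Wdr34, a dynein 2 intermediate chain gene, was called, at 0.32 (adjusted p = 0.0231), a call lost when undigested array 1 (0.30) or 2 (0.29) or digested array 1 (0.31) or 3 (0.29) was left out, and without undigested arrays 1 and 2 together (0.24, adjusted p = 0.17). Of 14 genes for ciliary GTPases and carriers, 4 rose and 1 fell. Unc119, a carrier of myristoylated proteins, had 6.15, 6.12, 6.63 and 6.37 against 7.48, 7.46, 8.19 and 8.04 and rose 2.78-fold (adjusted p = 0.00154). Arl3, the GTPase that releases such cargo inside the cilium, rose 1.64-fold (adjusted p = 0.0018). Pde6d, a carrier of prenylated proteins, rose 1.52-fold (adjusted p = 0.00473) and was named after its value was seen. Unc119b, the paralog of Unc119, also named after its value was seen, differed by -0.31 and did not pass (adjusted p = 0.103). Rab3ip, an exchange factor for Rab8 in ciliogenesis, rose 2.22-fold (adjusted p = 0.00406). Rabl2, a Rab-like GTPase that acts with IFT-B at the ciliary base, fell 1.44-fold (adjusted p = 0.0142), or differed by 0.06 after endothelial centring and was not called without undigested arrays 3 and 4 (-0.39). Of 16 genes of the transition zone, the gate at the base of the cilium, Tmem237 was the only one called, 2.12-fold raised (adjusted p = 0.00506).

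Many genes of motile axonemes, in contrast, were called lowered. The difference between this list and the members was not tested. Of 29 motile cilia and ependymal markers, 17 fell and 0 rose, with a median of -0.67, or -0.09 with 9 lowered and 8 raised after endothelial centring. At an unadjusted p under 0.05, 18 were lower and 2 higher, and the methods' t-test gave 10 lowered and 0 raised after adjustment, 17 and 0 before it, and 10 and 0 at the methods' own threshold. The mean of the list was 7.32 to 7.87 on the undigested and 6.50 to 7.13 on the digested arrays, without overlap. Without undigested arrays 1 and 2 the list had 18 lowered, and without arrays 3 and 4 it had 11 lowered and 1 raised. Foxj1, the transcription factor of motile ciliogenesis, differed by only -0.24 (SE 0.14, adjusted p = 0.254) or 0.34 after endothelial centring, not past the test in either. Of 17 choroid plexus epithelium markers, 14 rose and 0 fell, with a median of 1.35, and their mean was 8.47 to 9.39 on the undigested and 9.88 to 10.50 on the digested arrays. For this list 16 were higher and 0 lower at an unadjusted p under 0.05, and the methods' t-test gave 12 raised and 0 lowered after adjustment and 13 and 0 at the methods' own threshold. Without undigested arrays 1 and 2 the list had 11 raised, and without arrays 3 and 4 it had 16. Ttr, a defining gene of that epithelium, had 13.194 to 13.428 in undigested and 13.568 to 13.604 in digested vessels, without overlap (log2 difference 0.27, adjusted p = 0.0522). Among other settings, it passed after median centring (0.35), with array weights (0.29) and with the methods' t-test (adjusted p = 0.0484). Ttr also passed in limma without undigested arrays 3 and 4 (0.38), but not without arrays 1 and 2 (0.15, adjusted p = 0.318). Whether its probes were near saturation was not tested. Both lists were, like the transport genes, higher on undigested arrays 3 and 4 than on 1 and 2, for 28 of 29 motile cilia and 17 of 17 choroid plexus genes. All measured markers of these lists were above the background floor. Their part in the values of the IFT and BBSome genes was not tested.

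Markers of other cell types moved as follows. Of 18 astrocyte genes 14 fell (median -1.17), among them the endfoot water channel gene Aqp4, 5.59-fold lowered, and 10 fell and 3 rose after endothelial centring (median -0.59). Of 15 neuronal genes 4 rose (median 0.35), Rbfox3 among them, and 0 did so without undigested arrays 1 and 2, when 3 had an unadjusted p under 0.05. Of 9 oligodendrocyte genes 4 rose (median 0.23), of 15 pericyte and smooth muscle genes 7 fell and 1 rose (median 0.09), and of 11 microglia and macrophage genes 6 fell (median -0.78). The pericyte and smooth muscle median hides changes in both directions, from -2.03 for Atp13a5 to 1.22 for Cnn1, with 8 differences positive and 7 negative. That list had 6 lowered and 0 raised without undigested arrays 1 and 2, and 7 and 1 without arrays 3 and 4. Without undigested arrays 3 and 4 the neuronal list had 7 raised, the oligodendrocyte list 5 raised (median 0.48) and the microglia and macrophage list 4 lowered (median -0.37). The 25 endothelial genes had 14 lowered and a median of -0.52, against 7 lowered (median -0.38) without undigested arrays 1 and 2 and 18 (median -0.67) without arrays 3 and 4. None of them had undigested arrays 3 and 4 both above 1 and 2. Their list mean was 10.05 to 10.46 on the undigested and 9.48 to 9.79 on the digested arrays. Once each array was centred on that list, the median of all clusters moved from -0.02 to 0.55, the median of the members from 0.16 to 0.74, and 32 of 34 members passed as raised. Centring shifts all clusters of an array by the same amount. The gap of 0.18 between the members and all clusters was therefore bound to stay the same. With the arrays centred on their medians 8 members were raised and 0 lowered.

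**Figure D3:**
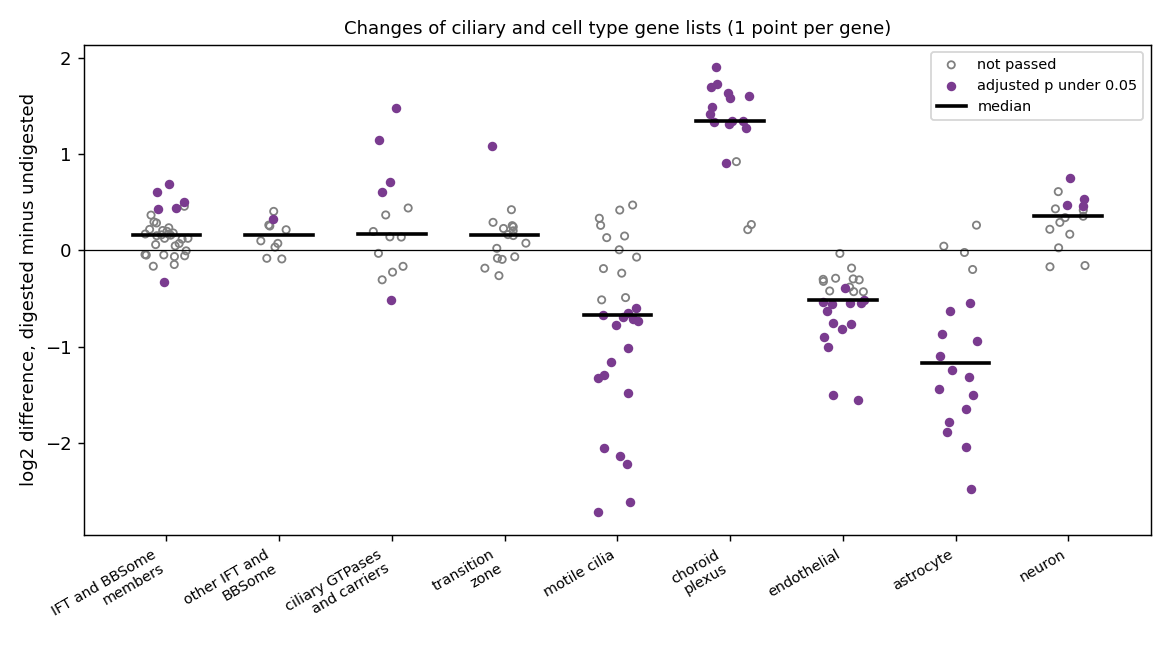
Log2 difference, digested minus undigested (vertical axis), of each gene in the member list and in 8 other lists, filled where the adjusted p was under 0.05, with the list median as a bar. The member and pathway lists centre near 0.16, the motile cilia list at -0.67 and the choroid plexus list at 1.35.

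**Figure D4:**
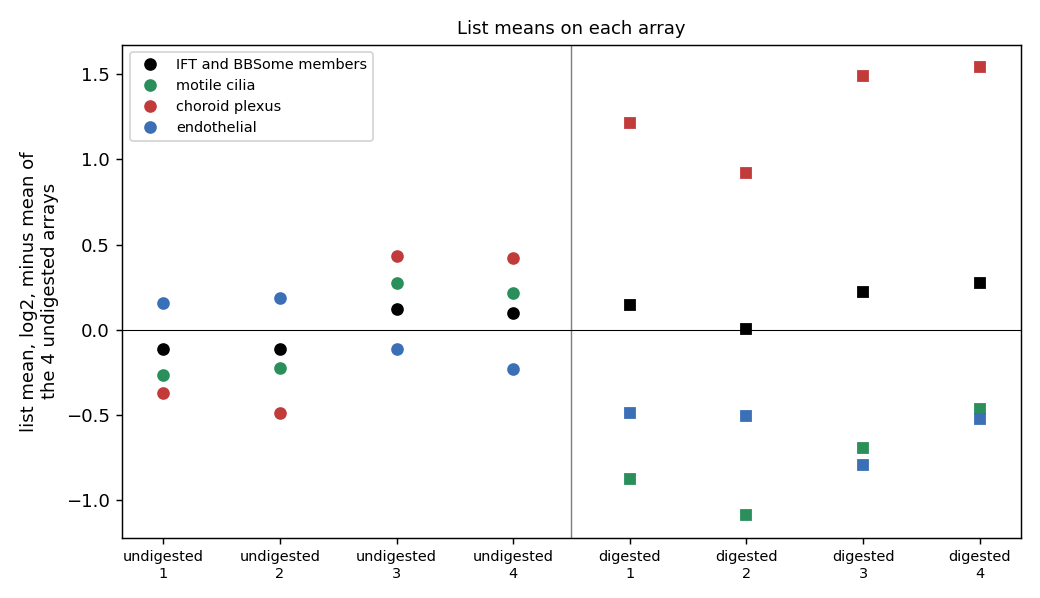
Mean log2 value of 4 lists on each array, minus the mean of the same list over the 4 undigested arrays (vertical axis). The member list spans a narrow range beside the motile cilia and choroid plexus lists, and is lowest on undigested arrays 1 and 2.

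Members with and without an X-box arm had overlapping differences. Promoters were listed for 29 of the measured members, and 13 of them held an arm. Their differences ran from -0.33 for Ift172 to 0.69 for Wdr35, with a median of 0.12, against 0.15 for the 16 without an arm. Of the 5 raised members 3 held an arm, Ift27 and Wdr35 among them.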

How the data were processed

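Affymetrix Mouse Gene 2.0 arrays were used, 4 for undigested and 4 for digested vessels. For 41345 transcript clusters the deposited table gives a log2 value on each array. According to the methods, the authors used Expression Console and EASANA with background correction on antigenomic probes and quantile normalization. Whether the table went through these steps is not stated, its log2 scale was read from the values, and array medians ran from 5.58 to 5.71. No value was transformed further. Symbols came from the platform table: 23521 clusters had 1 symbol, 1820 several and 16004 none.

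Clusters of olfactory and vomeronasal receptors (1400) set the background floor: the 90th percentile of their means was 4.68. Above it lay 27658 clusters, which were tested two-sided by lmFit and eBayes of limma 3.58.1 (R 4.3.3) without covariates and adjusted together by Benjamini-Hochberg. The methods name an unpaired t-test with an unadjusted p and a 2-fold threshold, which was run as an alternative, also with Benjamini-Hochberg adjustment. A gene was its cluster with the highest mean.

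The members, lists and alternatives were chosen with earlier results of these data known. All members are given. Values on every array are given for members past the test or near its threshold, for those whose call is lost, turned or, after median centring, gained under a scaling and for the most abundant of each complex, and of other lists at most 3 genes per direction and defining markers are named. The steps were tested on simulated data. For the limma fit these had independent noise and few changed clusters, without the split among the undigested arrays. Promoters came from the RefSeq table supplied (GRCm38.p6). Not every site found is printed, and 1 sequence is not reported here. The array medians, the endothelial list, a second quantile normalization, other filters, eBayes settings, array weights, a replicate block and fewer arrays were tried as alternatives, and a block of arrays 1 and 2 against 3 and 4 was added after seeing the data. Precision is limited by 4 arrays per group. Figures were drawn in Python 3.11.15 with matplotlib 3.10.9.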

Additional observations from a re-analysis of the deposited data

Results flagged for a closer look

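In 68 groups of 4 arrays (34 members in each group of vessels), 2 had 1 array far from the other 3, where chance flags about 1 in 20. Kif17 on undigested array 2 was 6.47 against 6.27 to 6.28 on the other undigested arrays, a gap of 0.953 of the whole range of the group. Bbs2 on undigested array 3 was 7.81 against 7.68 to 7.70, a gap of 0.856 of the range. Neither gene passed the test.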

How the results depend on the processing

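The labels do not say whether replicate numbers pair the arrays. The deviations of same-numbered arrays correlated at 0.0602, 0.182, -0.0436 and 0.178, and those of differently numbered arrays at -0.211 to 0.199. These values do not settle whether the arrays were paired. With the replicate number as a block, 5442 clusters were called, against 5872 without it, and 1 member was lowered and 6 raised, Ift74 (adjusted p = 0.0189) in addition to the 5. It changed no other member's call.

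Centring on the endothelial list gave 19409 called clusters, of which 1.5% were lowered (47.9% as deposited), 0 members lowered, 32 raised and a member median of 0.74. Median centring gave 0 lowered and 8 raised, with 29.7% of 6430 calls lowered. The methods' t-test gave 3 raised after adjustment. Without undigested arrays 1 and 2, 0 members were raised and 2415 clusters called. Without arrays 3 and 4, 9 members were raised and 0 lowered, and 5067 clusters were called. Leaving out each array in turn gave 3 to 6 raised and 0 to 1 lowered members, a median of 0.12 to 0.19 and 4047 to 5610 called clusters. The cause of these shifts was not tested. The second quantile normalization, the other filters, array weights, a robust eBayes with an intensity trend, the mean of all clusters and the block of arrays 1 and 2 against 3 and 4 kept 1 lowered member and 5 to 7 raised ones.

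Signs turned as follows. After median centring they did for Ift88 (0.0368), Ift140 (0.0216), Wdr19 (0.0427), Dync2h1 (0.0384), Bbs9 (0.0808) and Bbs12 (0.0294). After endothelial centring they did for Ift81 (0.41), Ift88 (0.53), Ift172 (0.25), Ift140 (0.51), Wdr19 (0.53), Dync2h1 (0.53), Bbs9 (0.57), Bbs10 (0.43) and Bbs12 (0.52). Bbs12 was 0.003 after quantile normalization and Bbs9 0.0173 with array weights. Without undigested arrays 1 and 2, Ttc30b was -0.14, Kifap3 -0.0245 and Tulp3 -0.0279. Without arrays 3 and 4, Ift81 was 0.0068, Ift88 0.11, Wdr19 0.15, Kif17 -0.0049, Dync2h1 0.15, Bbs9 0.10 and Bbs12 0.0151. With single arrays left out, Ift88 ran from -0.15 to 0.0357, Wdr19 from -0.12 to 0.056, Dync2h1 from -0.14 to 0.025, Bbs9 from -0.0423 to 0.0417 and Kif3a from -0.0146 to 0.11. With 4 arrays per group and a median SE of 0.106, small differences were not detectable.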

Other observations

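The X-box arm was counted in other lists of genes too. It was present in 10 of 17 promoters of transition zone genes (58.8%), 14 of 26 of motile cilia genes (53.8%), 4 of 14 of choroid plexus genes (28.6%) and 2 of 17 of endothelial genes (11.8%). Of 13 other IFT and BBSome genes, 5 held an arm (38.5%). A pair of arms was found for 4 transition zone genes (23.5%) and 3 other IFT and BBSome genes (23.1%). None was found for the motile cilia, choroid plexus and endothelial genes. These are counts of letters in windows of equal length, with no test.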
